A study of Mus musculus with 10 samples.

Results

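Aminoacyl-tRNA synthetases were examined in gastrocnemius, a calf muscle, of 13-month-old male mice. Of 35 synthetase genes named for the comparison, 34 had at least 1 probe set that names no other gene, 19 of them cytosolic and 15 mitochondrial (gene names ending in 2). Dars, the cytosolic enzyme for aspartate, is unnamed in the probe table used here. The 34 genes had 70 probe sets, of which 55 passed the filter on dim signals described under the processing, and 33 genes could be tested (19 cytosolic and 14 mitochondrial) of 11215 tested in all. Vars2, the mitochondrial valine enzyme, had only dim probe sets and was not tested. The rule for choosing genes used their names, but it was set with earlier results of these data known.

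The D257A group held 5 mice homozygous for a knock-in allele of Polg (PolgD257A/D257A), and the WT group held 5 mice with both normal alleles (Polg+/+). Polg encodes the polymerase that copies mitochondrial DNA, and the amino acid change removes its proofreading, so that mutations build up in mitochondrial DNA. Both groups came from a mixed background that had been backcrossed into C57Bl/6J for several generations. Each mouse gave 1 Affymetrix mouse genome array, with no pooling of animals. A probe set is a group of short probes against 1 transcript, and its value here is the log2 of its scaled signal. Replicates are labelled as separate mice, named here by the number in their labels (such as 2-17M), whose first digit has no stated meaning. That digit is 2 in every D257A mouse, but among WT mice only in 2-3M and 2-32M.

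A synthetase joins 1 amino acid to the tRNAs that carry it, the step at which the genetic code is read. Animal cells hold separate enzymes for the cytosol and for the mitochondrial matrix, and all of them are encoded in the nucleus. The mitochondrial enzymes charge tRNAs transcribed from mitochondrial DNA, the molecule in which D257A mice gather mutations. Gars and Kars serve both compartments from a single gene. Several cytosolic enzymes are held together in a multisynthetase complex, and many cytosolic synthetase genes are known targets of ATF4, the transcription factor of the integrated stress response, which binds C/EBP-ATF response elements near their start sites.

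Because ATF4 targets are recognised by a short DNA element, the promoters were searched for its core, TGATGNAA (TTNCATCA on the other strand). RefSeq promoters (GRCm38.p6, 250 bases before to 50 after the start) were at hand for 26 of the 35 genes, 13 in each compartment. Those of Cars, Hars, Hars2, Lars, Nars, Pars2, Rars, Vars and Wars were not used here. The core was found for 5 of 13 cytosolic genes (38.5%) and for 0 of 13 mitochondrial ones, against 3.97% of all 32851 promoters. For this and the other motifs, synthetases were counted by gene and the share over all by promoter. The stretches around the matches are shown 5′ to 3′ on the gene's strand, with the core in capitals, and that of Asns, the asparagine synthetase gene, is set beside them since it is a well-studied ATF4 target.
Aars, chr8:111033690-111033866, plus strand: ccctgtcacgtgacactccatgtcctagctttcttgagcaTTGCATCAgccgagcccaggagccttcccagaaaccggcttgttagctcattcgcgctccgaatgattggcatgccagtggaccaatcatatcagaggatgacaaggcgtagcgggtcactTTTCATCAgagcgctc
Gars, chr6:55037931-55038018, plus strand: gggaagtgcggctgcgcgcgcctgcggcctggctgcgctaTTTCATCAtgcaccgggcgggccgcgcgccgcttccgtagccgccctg
Iars, chr13:49682097-49682154, plus strand: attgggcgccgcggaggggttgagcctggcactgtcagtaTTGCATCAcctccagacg
Tars, chr15:11399634-11399713, minus strand: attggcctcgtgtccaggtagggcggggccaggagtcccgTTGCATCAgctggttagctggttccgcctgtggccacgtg
Yars, chr4:129189866-129189927, plus strand: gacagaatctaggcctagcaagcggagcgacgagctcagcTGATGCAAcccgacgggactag
Asns, chr6:7693185-7693272, minus strand: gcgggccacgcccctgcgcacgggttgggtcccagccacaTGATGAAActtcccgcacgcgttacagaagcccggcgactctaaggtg
The core begins 30 bases before the start in Gars and 15 before it in Tars, and at base 8 after the start in Iars and base 4 in Yars. Aars holds 2 matches, 112 bases before the start and at base 10 after it, and Asns 1, 23 bases before it. A match is a run of letters and was not tested as a binding site.

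Other motifs fell differently over the compartments. The E-box CACGTG, bound by basic helix-loop-helix factors, was in 4 cytosolic promoters (Aars, Farsb, Iars and Tars) and in 1 mitochondrial promoter (Ears2), against 7.15% of all promoters. The core GCGCATGC of NRF1, a factor known for nuclear genes of mitochondrial proteins, was in 0 of 13 cytosolic and in 3 of 13 mitochondrial promoters (Rars2, Vars2 and Wars2), against 2.71% of all. No match of 1 motif overlapped a match of another in these promoters.

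The factors that brought the arrays to a common mean were 4.71 to 5.35 in D257A mice and 3.88 to 5.29 in WT mice. The 10 skeletal muscle markers were all bright enough to test, summed to signals of 526482 to 570944 in D257A mice and 463136 to 605278 in WT mice, and none passed the test in limma (0 at an unadjusted p under 0.05). Because a protocol line of the labels names cochlea, 10 cochlea markers were read too: 7 were too dim to test and all 10 summed to only 374 to 689 in D257A mice and 482 to 675 in WT mice. Polg itself cannot check the genotype, since the allele changes 1 codon. In these whole-muscle samples, fewer cells of a type and less RNA per cell cannot be told apart. Among WT animals, mouse 1-13M was the highest of all 10 mice at 11 of the 33 synthetases, and mouse 3-18M was the lowest at 9.

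No synthetase passed an adjusted p under 0.05 in limma (adjustment over all 22518 probe sets tested), in either direction. Over all genes, 3.71% were called higher and 3.52% lower in D257A muscle. At an unadjusted p under 0.05, 5 synthetases were higher (4 cytosolic and 1 mitochondrial) and 1 mitochondrial enzyme was lower, where 11.1% of all genes were higher and 11.7% were lower at that p. The methods' t-test also called 0 of the 33 after Benjamini-Hochberg adjustment, with 7 at an unadjusted p under 0.05. By that test, 4.43% of all genes were called and 21.9% had an unadjusted p under 0.05. Fold changes ran between −0.44 and 0.31 on the log2 scale (D257A minus WT).

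The median log2 fold change was 0.03 for the 19 cytosolic enzymes and −0.07 for the 14 mitochondrial ones, and −0.01 for all genes tested. Values lay above 0 for 10 cytosolic enzymes and below 0 for 9, while 4 mitochondrial enzymes lay above 0 and 10 below. These signs move with the scaling: when each array was centred on its median, the median of all genes became 0.12, and 16 of 19 cytosolic and 9 of 14 mitochondrial enzymes lay above 0. Measured from the median of all genes, the cytosolic median was 0.04 above it as reported, 0.05 above it with median centring and 0.04 above it with no scaling, but its offset was −0.01 with quantile normalization, where 9 cytosolic enzymes lay above 0 and 10 below. The offset of the mitochondrial median was −0.06 as reported and with median centring, −0.05 with quantile normalization and −0.07 with no scaling.

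**Figure D1:**
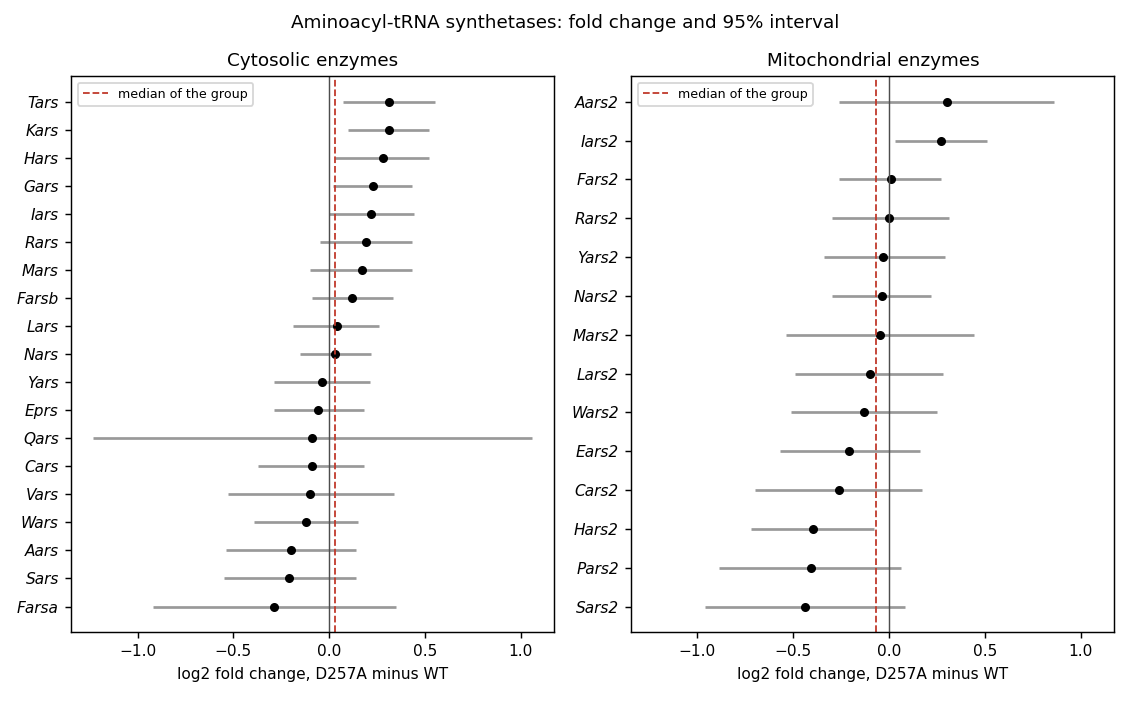
Log2 fold change (D257A minus WT, x axis) of each tested synthetase with its 95% interval from limma, cytosolic enzymes left and mitochondrial enzymes right, with the median of each group dashed. All 33 fold changes lie between −0.44 and 0.31, and the interval of Qars, from −1.23 to 1.06, is the widest.

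For each gene's brightest probe set, and under the reported scaling, the intervals bound what these arrays could have missed. In 16 of the 33 enzymes (11 cytosolic and 5 mitochondrial) the 95% interval stayed within 0.5 log2 units of 0 on both sides. It stayed within 1 log2 unit in 32, all but Qars. Dimmer probe sets reached further in Lars2 (1439225_at, −1.34 to −0.21) and Cars2 (1454186_a_at, −1.06 to −0.18). Standard errors had a median of 0.11 among the cytosolic and 0.18 among the mitochondrial enzymes.

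Among enzymes of the multisynthetase complex, Kars stood first. Kars attaches lysine, in the cytosol and in mitochondria, and had log2 signals of 12.02, 12.08, 11.90, 11.98 and 11.82 in the D257A mice, against 11.77, 11.68, 11.71, 11.64 and 11.45 in the WT mice. Every D257A mouse was above every WT mouse. The scaled signal averaged 3994 ± 286 (SD, n = 5) in D257A mice and 3226 ± 268 (n = 5) in WT mice, a log2 fold change of 0.31 (SE 0.10, limma adjusted p = 0.0753). Without WT mouse 1-13M the log2 fold change was 0.32 and the adjusted p in limma 0.0414, but calls over all genes were also more numerous without that mouse, at 7.76% higher and 8.33% lower. Over all 22 alternatives the adjusted p ran from 0.018 to 0.367.

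Genotypes did not overlap, with D257A above, in 3 of the 33 enzymes (Kars, Gars and Iars2), where 3.93% of all genes had that order. In the opposite order there were 0 of 33, where 3.47% of all genes had it. The complex as a whole had 7 tested members with a median log2 fold change of 0.17, 5 of them above 0, against −0.07 for the 12 cytosolic enzymes outside it.

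Iars, the complex's isoleucine enzyme, had log2 signals of 12.29, 12.21, 12.19, 12.23 and 12.29 in the D257A mice, against 11.80, 12.14, 12.00, 11.91 and 12.27 in the WT mice. The D257A mice lay within 0.10 log2 units of each other, and WT mouse 3-18M fell among them. The log2 fold change was 0.22 (limma adjusted p = 0.221). A second Iars probe set, 1452154_at, gave −0.06 (adjusted p = 0.813), so the gene's probe sets did not share a sign.

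For Rars, the arginine enzyme, the values were 11.49, 11.31, 11.25, 11.30 and 11.42 in D257A mice, against 10.98, 11.40, 11.30, 11.14 and 11.01 in WT mice (log2 fold change 0.19, limma adjusted p = 0.336). Mars, which attaches methionine and so also charges the initiator tRNA, gave 11.89, 11.76, 11.65, 11.75 and 11.78 in D257A mice and 11.46, 11.97, 11.58, 11.68 and 11.32 in WT mice (0.17, adjusted p = 0.444). In both genes WT mouse 1-13M lay among or above the D257A mice and the groups overlapped. Lars (leucine) and Eprs, a fused enzyme for glutamate and proline, were close to 0 at their brightest probe sets. The other Eprs probe sets gave −0.43 and −0.33 (adjusted p = 0.292 and 0.370 in limma). The complex's scaffold proteins Aimp1, Aimp2 and Eef1e1 gave 0.21, −0.16 and 0.05, and none passed the test.

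**Figure D2:**
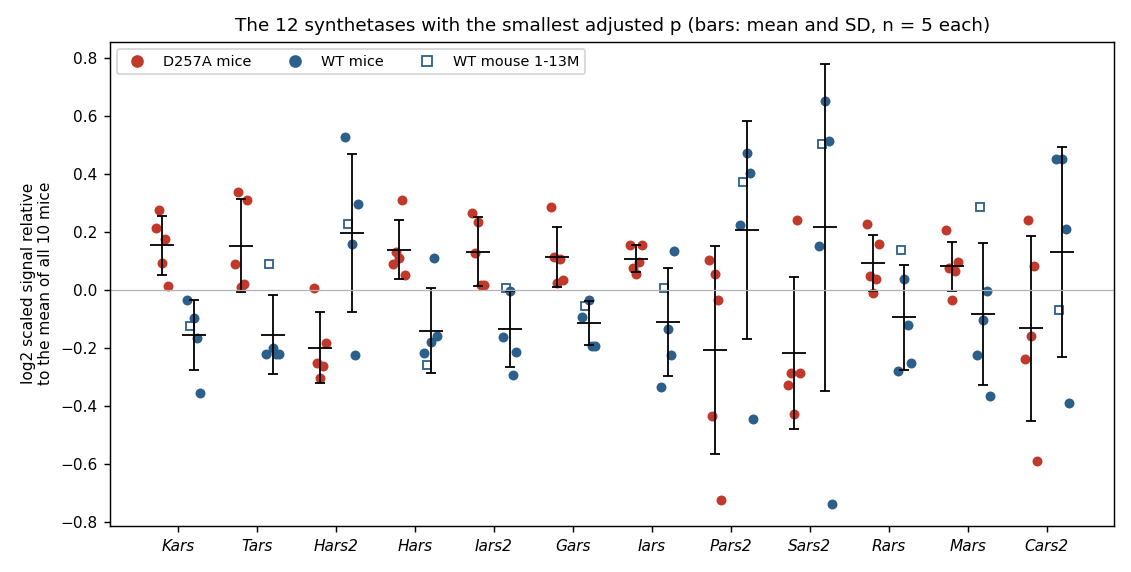
Log2 scaled signal of each mouse relative to the mean of all 10 mice (y axis) for the 12 synthetases with the smallest adjusted p, D257A mice red on the left of each gene and WT mice blue on the right, with the mean and SD of 5 mice. Kars, Iars2 and Gars show no overlap of the genotypes, and the open square of WT mouse 1-13M lies among the D257A points in Tars and Rars.

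Qars, the complex's glutamine enzyme, had probe sets that behaved differently. The brightest, 1456213_x_at, read 10.24, 10.16, 11.99, 12.28 and 12.16 in the D257A mice and 10.40, 10.06, 12.28, 12.39 and 12.13 in the WT mice. Signals thus sat at a low level in D257A mice 2-17M and 2-21M and WT mice 1-12M and 1-13M, and at a high level in the other 6 mice, with nothing between 10.40 and 11.99. The log2 fold change was −0.09 with an SE of 0.53.

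The remaining tested Qars probe sets had no such gap. Probe set 1456726_x_at read 11.66, 11.31, 11.57, 11.71 and 11.35 in D257A mice and 11.00, 11.17, 10.91, 11.03 and 11.57 in WT mice, a log2 fold change of 0.39 (limma adjusted p = 0.106). Probe set 1423712_a_at read 11.31, 11.32, 11.18, 11.15 and 11.05 in D257A mice and 10.81, 11.23, 10.88, 10.95 and 10.77 in WT mice, a log2 fold change of 0.27 (adjusted p = 0.164). In each of them a single WT mouse reached the D257A range, 3-18M in the first and 1-13M in the second. In Affymetrix names, the ending x_at marks a set whose probes can also match other sequences. The mice at the low level of 1456213_x_at were also below all others at dimmer sets of Fars2 (1439406_x_at) and Yars2 (1439442_x_at). The nearest values there were 9.08 and 9.13 in Fars2, and 8.34 and 8.48 in Yars2. No such order was seen at the other x_at sets, 1456726_x_at of Qars, 1435103_x_at of Farsb, and 1434813_x_at and 1437832_x_at of Wars. What sets those mice apart was not tested.

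**Figure D3:**
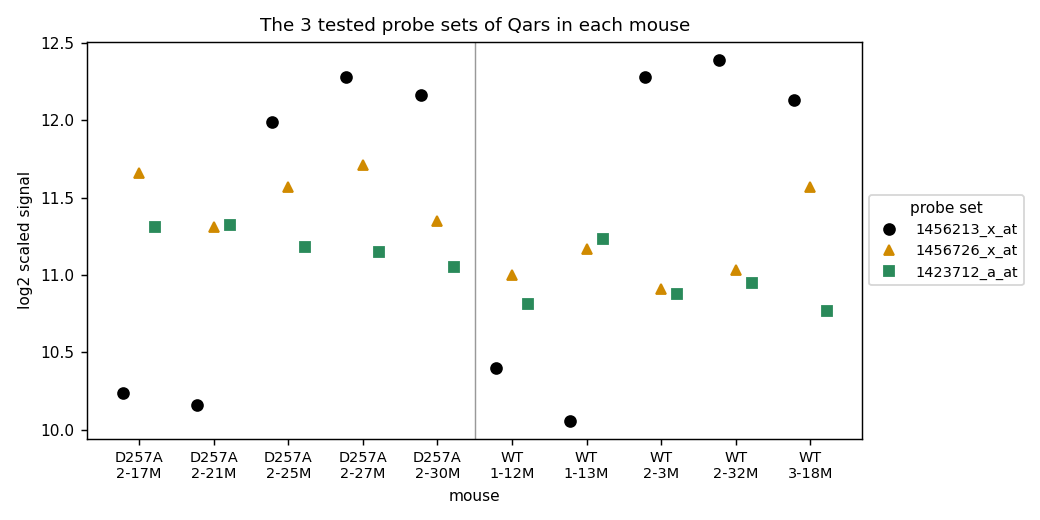
Log2 scaled signal (y axis) of the 3 tested Qars probe sets in each mouse, D257A mice on the left of the line and WT mice on the right. The black circles of 1456213_x_at lie at or below 10.40 in 4 mice and at or above 11.99 in 6, with mice of both genotypes at each level.

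Outside the complex, Tars, the threonine enzyme, had log2 signals of 11.36, 11.61, 11.28, 11.29 and 11.58 in D257A mice, against 11.05, 11.36, 11.07, 11.05 and 11.05 in WT mice. The WT mice lay within 0.02 log2 units of each other but for mouse 1-13M, which stood at the level of the D257A mice. The scaled signal averaged 2761 ± 304 (SD, n = 5) in D257A mice and 2223 ± 223 (n = 5) in WT mice, a log2 fold change of 0.31 (limma adjusted p = 0.108). Without WT mouse 1-13M it was 0.37 with an adjusted p of 0.0235 in limma.

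Gars, which attaches glycine in both compartments, had values of 11.78, 11.61, 11.52, 11.60 and 11.53 in D257A mice and 11.40, 11.44, 11.46, 11.30 and 11.30 in WT mice. No WT mouse reached the D257A range, the nearest values being 11.52 in D257A and 11.46 in WT mice. The log2 fold change was 0.23 (limma adjusted p = 0.165). Hars, the histidine enzyme, had 10.28, 10.32, 10.30, 10.50 and 10.24 in D257A mice and 9.97, 9.93, 10.01, 10.30 and 10.03 in WT mice, a log2 fold change of 0.28 (adjusted p = 0.154). WT mouse 2-32M alone reached the D257A range. Its second probe set, 1417024_at, gave 0.13 (adjusted p = 0.601).

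Below 0 lay Aars (alanine), with log2 fold changes of −0.20 and −0.18 at its tested probe sets (limma adjusted p = 0.484 and 0.279). Its brightest probe set spanned 11.39 to 11.58 in D257A mice and 11.16 to 12.23 in WT mice, the top value being that of mouse 1-13M, without which the log2 fold change was −0.06. Sars (serine) lay at −0.21. The subunits of the phenylalanine enzyme differed in sign, with −0.29 for Farsa, the catalytic subunit, and 0.12 for Farsb (adjusted p = 0.607 and 0.482). Farsa depended on single WT mice, with −0.55 once 1-12M was left out and −0.10 once 1-13M was, and its second tested probe set, 1446301_at, gave 0.16, the sign of Farsb. Cars, Nars, Vars, Wars and Yars, the enzymes for cysteine, asparagine, valine, tryptophan and tyrosine, had brightest probe sets within 0.12 log2 units of 0. The 4 tested Wars probe sets ran from −0.46 to 0.17.

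Promoters with and without the ATF4-type core did not divide the cytosolic enzymes cleanly. The 5 with it had log2 fold changes of 0.31 (Tars), 0.23 (Gars), 0.22 (Iars), −0.04 (Yars) and −0.20 (Aars), with a median of 0.22. The 7 tested ones whose promoters held no match had a median of −0.06 and ran from −0.29 to 0.31, with Kars at the top. Both medians use brightest probe sets and depend on that choice. For Iars, a second set gave −0.06. Among the 7, other tested sets gave 0.39 and 0.27 for Qars (−0.09 here) and 0.16 for Farsa (−0.29 here). For Eprs they gave −0.43 and −0.33 (−0.06 here). The difference between the medians was not tested. Asns, with its single match, had log2 signals of 8.69, 8.38, 8.36, 8.51 and 8.45 in D257A mice, against 7.62, 7.38, 7.34, 7.39 and 7.60 in WT mice. Its log2 fold change was 1.01 (limma adjusted p = 0.00115), with every D257A mouse above every WT mouse. Asns has the smallest adjusted p in the list of ATF4-controlled amino acid genes given below, and no other promoter from it is shown. Of the 14 tested genes in that list, 6 lay above 0 and 8 below.

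In the mitochondrial set, Iars2 (isoleucine) was the enzyme without overlap. Its log2 signals were 10.78, 10.64, 10.75, 10.53 and 10.53 in D257A mice and 10.35, 10.52, 10.51, 10.22 and 10.30 in WT mice. The nearest mice were 0.01 log2 units apart, and the log2 fold change was 0.27 (limma adjusted p = 0.159). A dimmer Iars2 probe set, 1441665_at, gave 0.03 (adjusted p = 0.953). Aars2 (alanine) had the highest log2 fold change of the mitochondrial enzymes, 0.30, with an interval from −0.26 to 0.86. Without WT mouse 1-12M, whose log2 signal of 6.81 was the lowest, it was 0.08, and Iars2 was then above it at 0.26.

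Hars2, the mitochondrial histidine enzyme, had 8.85, 8.59, 8.54, 8.58 and 8.66 in D257A mice, against 9.37, 9.07, 9.00, 8.62 and 9.14 in WT mice. All but WT mouse 2-32M lay above the D257A range. The scaled signal averaged 401.3 ± 36.6 (SD, n = 5) in D257A mice and 533.4 ± 96.7 (n = 5) in WT mice, a log2 fold change of −0.40 (limma adjusted p = 0.125). Hars2 lies directly beside the cytosolic gene Hars, whose log2 fold change was 0.28. A second Hars2 probe set gave −0.28 (adjusted p = 0.580).

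Sars2, the mitochondrial serine enzyme, had 7.99, 8.03, 7.89, 8.56 and 8.03 in D257A mice and 8.47, 8.82, 8.97, 8.83 and 7.58 in WT mice. WT mouse 3-18M was the lowest of all and D257A mouse 2-27M stood above the rest of its group. The log2 fold change was −0.44 (limma adjusted p = 0.294), and without WT mouse 3-18M it was −0.68 with an adjusted p of 0.0317. Pars2 (proline) had 7.68, 7.14, 7.63, 7.54 and 6.85 in D257A mice and 7.80, 7.95, 8.05, 7.98 and 7.13 in WT mice, a log2 fold change of −0.41 (adjusted p = 0.285). Here too WT mouse 3-18M lay far below the other WT mice, which were all above the D257A range.

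For Cars2 (cysteine) the brightest probe set read 7.87, 8.35, 7.95, 8.19 and 7.52 in D257A mice and 8.56, 8.04, 8.56, 8.32 and 7.72 in WT mice, a log2 fold change of −0.26 (limma adjusted p = 0.465). Its second probe set, 1454186_a_at, read 7.69, 7.68, 7.36, 7.68 and 6.69 in D257A mice and 8.19, 8.18, 8.08, 7.98 and 7.78 in WT mice. On that set every D257A mouse lay below every WT mouse, with a log2 fold change of −0.62 (adjusted p = 0.0823). Lars2 (leucine) likewise had −0.10 at its brightest probe set and −0.77 at a dimmer one, 1439225_at (adjusted p = 0.780 and 0.0915), where D257A mouse 2-21M lay among the WT mice. The other tested mitochondrial enzymes, Ears2, Fars2, Mars2, Nars2, Rars2, Wars2 and Yars2, had log2 fold changes between −0.21 and 0.01 at their brightest probe sets.

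Across both compartments, 17 enzymes had more than 1 tested probe set. In 11 all of a gene's sets shared a sign, and in 6 (Farsa, Iars, Qars, Wars, Fars2 and Wars2) they did not. None of the 55 tested probe sets passed the adjusted threshold in limma, and 12 had an unadjusted p under 0.05, where 23.6% of all 22518 tested probe sets had one.

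Each mitochondrial enzyme was also set beside the cytosolic enzyme for the same amino acid, with Eprs as partner of Ears2 and Pars2 and Farsa as partner of Fars2. Of the 14 pairs, 10 had the higher fold change on the cytosolic side, and 6 had opposite signs. With Farsb in place of Farsa these counts were 11 and 5. The isoleucine pair lay above 0 on both sides (0.27 for Iars2 and 0.22 for Iars), the serine pair lay below 0 on both sides, and the histidine pair differed most, at −0.40 for Hars2 and 0.28 for Hars. Among mice numbered 2 only, where the WT group is just 2-3M and 2-32M, Hars2 was at −0.17 and Hars at 0.17. The alanine pair ran the other way, with 0.30 for Aars2 and −0.20 for Aars, but both values shrank when 1 WT mouse was left out (Aars2 to 0.08 without 1-12M and Aars to −0.06 without 1-13M). The difference between partners was not tested.

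Neighbouring steps of protein synthesis gave a wider contrast. Of 41 tested proteins of the cytosolic ribosome, 32 were called higher and 0 lower in limma (3.71% and 3.52% of all genes). Their median log2 fold change was 0.41, with a range from −0.92 to 0.88. At an unadjusted p under 0.05 in limma, 35 were higher and 1 was lower, where 11.1% of all genes were higher and 11.7% lower. Only genes of this ribosome with a probe set that names no other gene, 42 in all, entered this count. Eef1a1, a factor that carries charged tRNAs to that ribosome, rose by 0.42 (adjusted p = 0.0137), at 14.75, 14.44, 14.65, 14.40 and 14.70 in D257A mice against 14.20, 14.31, 14.17, 14.01 and 14.16 in WT mice. Eef1a2, the isoform of the same role known from adult muscle, gave −0.24 (adjusted p = 0.292), with 13.88, 14.55, 14.48, 14.69 and 14.48 in D257A mice against 14.82, 14.54, 14.74, 14.68 and 14.49 in WT mice. The cytosolic enzymes that charge those tRNAs had a median of 0.03. Among 12 tested genes of cytosolic tRNA handling, Eef1a1 was the 1 called, and Dtd1, a proofreading deacylase (0.31), and Xpot, which exports tRNA from the nucleus (−0.34), did not pass the test.

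On the mitochondrial side, 0 of 76 ribosomal proteins were called higher and 5 lower (3.71% and 3.52% of all genes). Their median was −0.07, equal to that of the mitochondrial synthetases. Of 9 tested mitochondrial translation factors, 8 had fold changes below 0 and 1 was called. That gene was Tufm, the mitochondrial elongation factor that delivers charged tRNA, with 9.99, 9.98, 9.78, 10.00 and 9.81 in D257A mice and 10.41, 10.17, 10.38, 10.58 and 10.23 in WT mice (log2 fold change −0.45, limma adjusted p = 0.0350). Gfm1 (−0.31), Gfm2 (−0.39) and Tsfm (−0.65), the translocase, a recycling factor and the nucleotide exchange factor of Tufm, did not pass. Of 8 tested genes of other mitochondrial tRNA charging and of 15 for mitochondrial tRNA processing and modification, none was called in limma. At an unadjusted p under 0.05 there were 0 and 2, both of them lower, where 11.7% of all genes were lower.

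**Figure D4:**
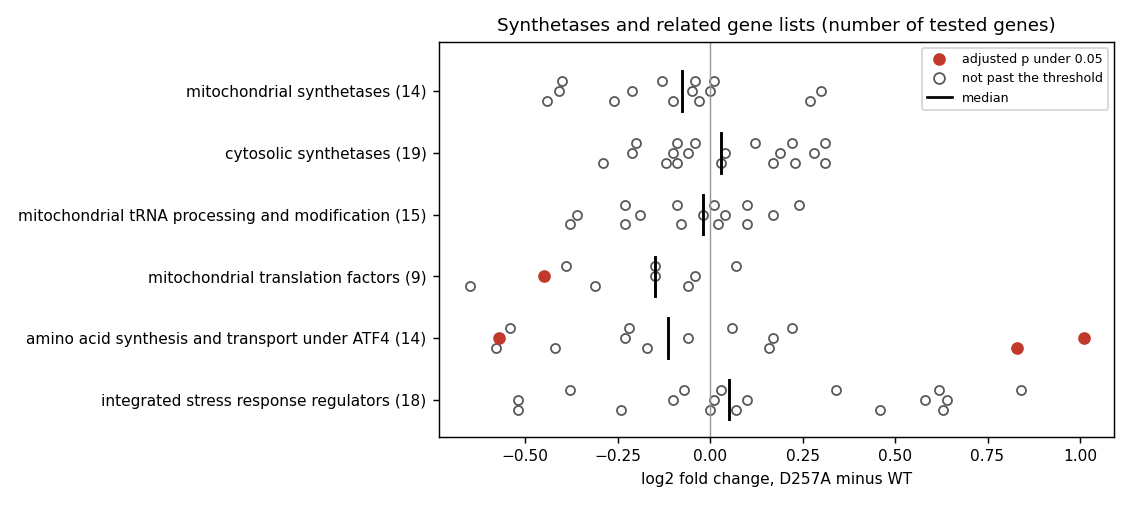
Log2 fold change (D257A minus WT, x axis) of every tested gene in the synthetase groups and 4 related lists, filled where the limma adjusted p was under 0.05, with the median of each list as a bar. No synthetase is filled, whereas Asns (1.01) and Slc1a4 (0.83) stand at the right of the ATF4 list and Tufm (−0.45) is the filled translation factor.

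Genes of amino acid synthesis and transport that ATF4 controls split in direction. Of 14 tested, 2 were called higher, Asns and the neutral amino acid carrier Slc1a4 (log2 fold change 0.83, limma adjusted p = 0.0375), and 1 lower, the glycine carrier Slc6a9 (−0.57, adjusted p = 0.0361). The shares over all genes were 3.71% higher and 3.52% lower. Mthfd2, a mitochondrial folate enzyme, was at −0.54 (adjusted p = 0.158), and the list's median was −0.12. Of 18 tested regulators and other genes of the integrated stress response, 0 were called. At an unadjusted p under 0.05 in limma, 4 were higher and 2 lower, where 11.1% of all genes were higher and 11.7% lower. Atf4 itself had 13.62, 13.61, 13.56, 13.55 and 14.15 in D257A mice, against 13.05, 13.80, 13.33, 13.14 and 12.84 in WT mice (0.46, adjusted p = 0.104), and the value of WT mouse 1-13M lay within the D257A range. Chac1, a glutathione-degrading ATF4 target, was at 0.62 with an adjusted p of 0.0504 in limma. Vldlr, a lipoprotein receptor, lay on the other side of 0 at −0.52 (adjusted p = 0.0565), and Eif4ebp1, a repressor of cap-dependent translation, was at 0.84 (adjusted p = 0.110).

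Some markers of other cells in muscle differed by genotype, chiefly those of macrophages and fibroblasts. The part of such cells in the values above was not tested. Over all genes, 3.71% were called higher and 3.52% lower. Of 14 tested macrophage markers 6 were called higher and 0 lower, and all 15 summed to 11099 to 16351 in D257A mice and 8414 to 10426 in WT mice. Of 8 tested fibroblast markers 4 were called lower and 0 higher, with sums of 21099 to 25148 in D257A mice and 21270 to 35208 in WT mice. Col1a2, a fibrillar collagen chain in that list, had 9.60 in WT mouse 1-13M and 10.92 to 11.79 in the other WT mice. Endothelial markers had 1 of 8 called higher, and adipocyte markers 1 higher and 1 lower of 5 tested.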

How the data were processed

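Total RNA of gastrocnemius from 10 mice was hybridised to Affymetrix mouse genome arrays. The deposited intensity values are 1 linear signal per probe set and array, made with GCOS 1.3 per the submitters' processing notes. How GCOS summarised the probes is not stated in the methods read here. The methods state scaling to 500, but the deposited columns had trimmed means of 93.4 to 106 in D257A and 94.5 to 129 in WT mice. Each array was therefore rescaled to a trimmed mean of 500 (2% of probe sets left out at each end), and log2 was taken. Array values carry no count depth, so the 5 mice per group limit the precision.

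Control probe sets (64) were removed, and the 22518 probe sets brighter than the median probe set, on average over all mice, were fitted in limma 3.58.1 with R 4.3.3. Genotype was the only term, eBayes allowed the variance to follow the mean, and tests were two-sided. A call was an adjusted p under 0.05 after Benjamini-Hochberg adjustment over all of them. Each gene takes the value of its brightest probe set that names no other gene, of 34958 such sets (932 name several genes and 9211 none), with names from an older platform annotation updated through RefSeq.

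Members and lists were chosen with earlier results of these data known. Signals of each mouse are given for the 12 synthetases with the smallest adjusted p and those whose genotypes do not overlap, and up to 4 genes of smallest adjusted p are named from each of 13 related lists. Qars, Aars and second probe sets were picked after their values were seen. Alternatives were quantile normalization, median centring, no scaling, other filters, an offset of 32, no variance trend, array weights, the mean over a gene's probe sets, the methods' t-test, the mouse number's first digit as a block, mice numbered 2 only, and leaving out each mouse. The limma fit and the t-test were checked on simulated data.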

Additional observations from a re-analysis of the deposited data

Results flagged for a closer look

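Among 66 groups of 5 mice (33 synthetases in each genotype), 6 held a mouse whose gap to the nearest other mouse was over 0.71 of the group's whole range, where chance gives about 1 in 20 groups. In Sars2 the log2 signal of D257A mouse 2-27M was 8.56 against 7.89 to 8.03 in the other D257A mice (gap 0.789 of the range). The same mouse was low in Yars2, the mitochondrial tyrosine enzyme, at 8.63 against 8.97 to 9.09 in the other D257A mice (0.74). In WT muscle, Tars stood at 11.36 in mouse 1-13M against 11.05 to 11.07 in the other WT mice, with a gap of 0.936 of the range. Hars stood at 10.30 in WT mouse 2-32M against 9.93 to 10.03 (0.74). WT mouse 3-18M was low in Fars2, the mitochondrial phenylalanine enzyme, at 10.10 against 10.48 to 10.61 (0.74), and in Pars2 at 7.13 against 7.80 to 8.05 (0.727).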

How the results depend on the processing

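The number of cytosolic synthetases called higher, 0 in the reported analysis, became 3 with array weights (Iars, Kars and Tars), 3 with each array centred on its median (Gars, Kars and Tars), and 0 to 2 when 1 mouse was left out, the 2 being Kars and Tars without WT mouse 1-13M. Calls over all genes, 3.71% higher and 3.52% lower as reported, were 8.89% higher and 9.30% lower with array weights and 7.76% higher and 8.33% lower without that mouse. Mitochondrial synthetases called lower, 0 as reported, became 1 among mice numbered 2 only and 0 to 1 with 1 mouse left out, in both cases Sars2, the second without WT mouse 3-18M (3.96% and 3.82% of all genes called lower). No alternative called a cytosolic enzyme lower or a mitochondrial enzyme higher. The cytosolic median log2 fold change, 0.03 as reported, was 0.17 with median centring, −0.0158 among mice numbered 2, −0.0406 with no scaling and −0.0027 with quantile normalization, and the mitochondrial median, −0.07 as reported, was 0.0589 with median centring. Median centring also raised the median of all genes to 0.12 and changed the calls over all genes from 416 higher and 395 lower to 840 higher and 187 lower, and no scaling gave 179 higher and 428 lower with a median of −0.08. Centring turned Eprs to 0.0751, Lars2 to 0.0324, Qars to 0.0480, Wars to 0.0152 and Yars to 0.0933. Yars was 0.0009 with array weights, and Qars was 0.19 as the mean of its tested probe sets. With 1 mouse left out, Qars ran from −0.43 to 0.22, Eprs from −0.12 to 0.0098, Lars2 from −0.29 to 0.0040 and Yars from −0.0745 to 0.0271. The cause of these shifts was not tested. Over all 33 enzymes and 22 alternatives, 656 of 717 values kept their direction and side of the threshold, 10 passed it only under the alternative, 51 in 15 enzymes changed sign, and 0 lost a call. Every enzyme with a changed sign had a reported log2 fold change within 0.13 of 0. No paired analysis was possible because the genotypes share no mouse number. With the first digit of the number as a block, no synthetase was called, where 3.09% of all genes were called higher and 3.07% lower. Every D257A mouse has the digit 2, so this block is largely tied to genotype. The median standard error was 0.11 for cytosolic and 0.18 for mitochondrial enzymes, and the widest intervals were those of the cytosolic genes Qars and Farsa.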
